A study of Caenorhabditis elegans with 4 samples.

Results

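The *fbxa*, *fbxb* and *fbxc* genes encode the 3 named families of F-box proteins of the nematode *Caenorhabditis elegans*. Their signals were read from 4 Affymetrix *C. elegans* GeneChips. A probe set, the group of probes that measures one transcript, was included when all of its gene symbols belonged to these families and its signal was 100 or more on any of the arrays. The rule took 104 of the 336 probe sets of the families, out of 22625 on the array: 42 for *fbxa*, 41 for *fbxb* and 21 for *fbxc*. It used the height of the signal but no comparison between arrays. Still, a probe set that passes on a single array must be brighter there, so counts over the members describe and do not test.

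The study asked which genes respond to heavy metal stress through KGB-1, a kinase of the JNK family. Adults 1 day old, of the N2 Bristol strain, were grown at 20 °C on OP50 bacteria, collected, and kept for 1 h at room temperature in 1 mM copper sulfate or in water. The 4 samples were copper-treated *kgb-1(km21)* mutants, untreated *kgb-1(km21)* mutants, copper-treated wild-type animals and untreated wild-type animals, each with 1 array of total RNA from whole animals. The authors deposited MAS5 signals, which are linear intensities scaled so that every array has the same trimmed mean. The probe set for *kgb-1* itself read 229 and 179.5 in the mutants with copper and water, and 314 and 128.5 in wild-type animals with copper and water. No source used here says whether these probes fall in the sequence that *km21* removes, and the values are therefore no check of the genotype.

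F-box proteins are the subunits that choose the substrate in SCF ubiquitin ligases. In these ligases the cullin CUL-1 holds a RING protein at one end and a Skp1-related adaptor, named SKR in worms, at the other, and the adaptor binds the F-box. The rest of the F-box protein binds the target, which is then marked with ubiquitin. Worms carry a very large F-box repertoire that lies in clusters of neighbouring genes and evolves fast. FBXA proteins join the F-box to an FTH domain, named after FOG-2 of the germ line, while FBXB and FBXC proteins join it to other domains. Hardly any single member has a known substrate.

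Most probe sets of these families were dim. A signal of 100 or more was found for 42 of 189 *fbxa* probe sets (22.2%), 41 of 98 *fbxb* (41.8%) and 21 of 49 *fbxc* (42.9%), against 11266 of 22548 worm probe sets (49.97%). Of the 104 members, 66 reached 100 on every array and 38 on 1 to 3 arrays. Their mean over the arrays was below 200 for 71 members and at least 500 for 8. The median *fbxa* signal was 184.6 in copper-treated mutants, 174.6 in untreated mutants, 182.9 in copper-treated wild type and 186.3 in untreated wild type. The median *fbxb* signal in the same order of arrays was 139, 130.1, 114 and 109.7, and that of *fbxc* was 190.9, 212, 175.9 and 192.4. These compare with 545, 552, 534 and 544 over all 11266 probe sets. Just inside the limit lay *fbxb-47*, with a highest signal of 100.5, *fbxb-71* with 102.3 and *fbxb-26* with 102.5, and just outside it *fbxb-67* with 96.8, *fbxb-49* with 95.9 and *fbxb-61* with 95.6. A signal depends on the probes as well as on the transcript, so signals of different probe sets do not rank the genes.

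**Figure D1:**
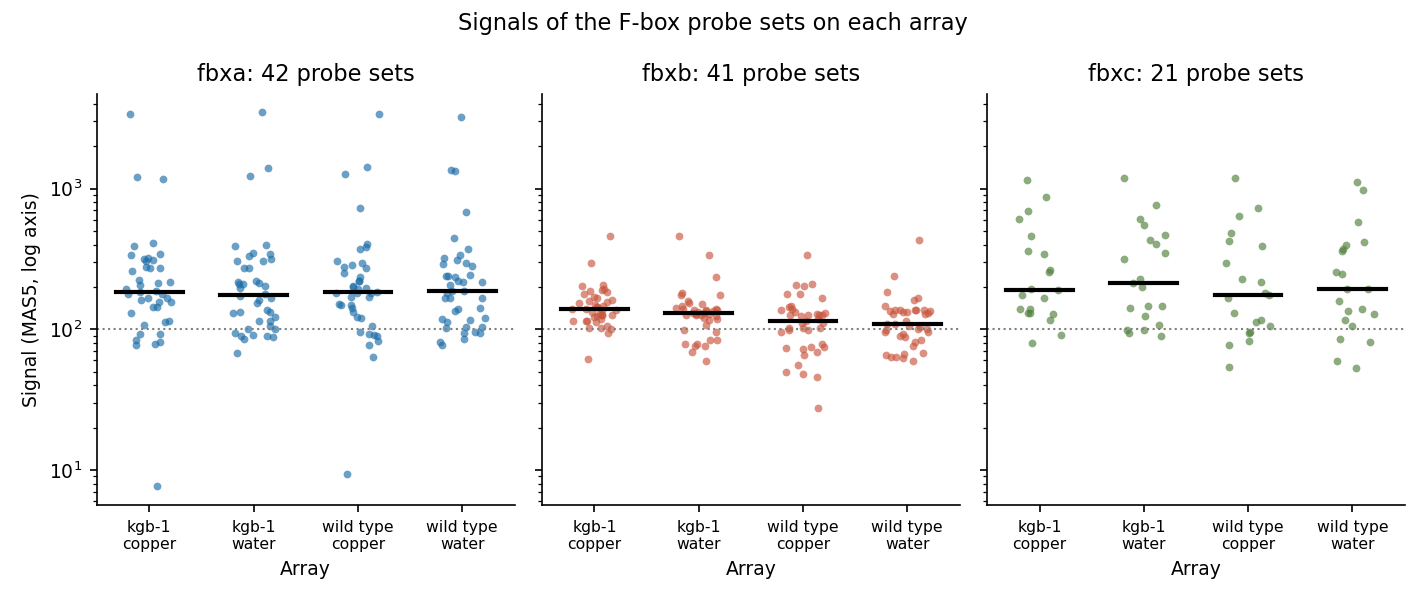
Signal (MAS5, log axis) of the 42 *fbxa*, 41 *fbxb* and 21 *fbxc* probe sets on each of the 4 arrays, with 1 point per probe set, a bar at the median and a dotted line at 100. Most points lie between 50 and 500 on every array, and the *fbxb* median is higher on the 2 mutant arrays (139 and 130.1) than on the 2 wild-type arrays (114 and 109.7).

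Of the 8 members with a mean of at least 500, *fbxa-156* and one probe set of *fbxc-51* differed most between the genotypes and are described with them below. *fbxa-215* read 3376 and 3485 in mutants with copper and water and 3381 and 3212 in wild type with copper and water. *fbxa-210* read 1208 and 1407 in the mutants and 1429 and 1325 in wild type. *fbxa-101* read 1162 and 1232 in the mutants and 1262 and 1357 in wild type. The groups overlap for *fbxa-215* and *fbxa-210*, while for *fbxa-101* both mutant signals lie below both wild-type signals. Among *fbxc* probe sets, *fbxc-50* read 1158 and 1190 in the mutants and 1188 and 1114 in wild type. *fbxc-47* read 869 and 768 in the mutants and 727 and 974 in wild type, with the lowest and the highest value both in wild type. *fbxc-58* read 607.5 and 548 in the mutants and 638 and 578 in wild type, and *fbxc-28* 459 and 427 in the mutants and 423 and 375 in wild type. No *fbxb* probe set had a mean as high as 500. The brightest of that family, *fbxb-54*, read 295 and 336 in the mutants and 336 and 429 in wild type. Next came *fbxb-41*, described below, and *fbxb-15*, which read 203.5 and 234 in the mutants and 203 and 240.1 in wild type.

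Of the 104 members, 22 carry a probe set suffix that marks sequence shared with other transcripts, so their signal can hold RNA of a near copy. A total of 3 members name several genes. The probe set for *fbxc-3*, *fbxc-1*, *fbxc-2*, *fbxc-4* and *fbxc-5* read 265.5 and 318 in the mutants and 297 and 362 in wild type. That for *fbxb-44* and *fbxb-43* read 145.4 and 98.8 in the mutants and 114 and 98.6 in wild type, and that for *fbxa-157* and *fbxa-156* is given below. RefSeq annotates 8 members as pseudogenes. The brightest of them, *fbxa-123*, read 390.0 and 331 in the mutants and 286 and 321 in wild type. The other pseudogenes were *fbxa-124*, *fbxa-129*, *fbxa-217*, *fbxa-207*, *fbxa-162*, *fbxa-198* and *fbxc-46*, with signals between 77.4 and 207.

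The members are unevenly placed in the genome. By the RefSeq annotation of WBcel235, 43 of the 104 lie on chromosome II, among them 26 of the 41 *fbxb* and 16 of the 21 *fbxc* members. Chromosome V holds 28, of which 22 are *fbxa*, and chromosome III holds 14, of which 11 are *fbxa*. Chromosome IV holds 9, chromosome I holds 8 and the X chromosome 2.

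Copper changed no member by the test across all probe sets. The effect of copper was fitted with limma on log2 signal with genotype in the model, so that each genotype repeats the contrast, with Benjamini-Hochberg adjustment over the 11266 probe sets and a limit of 0.05. None of the 104 members was called higher, against 1.18% of all probe sets (133), and none lower, against 0.346% (39). Without adjustment, 4 members were higher and 4 lower at a p under 0.05, which is 8 of 104 against 12.8% of all probe sets. The median copper effect was 0.04 on the log2 scale over the members and 0.00 over all probe sets. Both copper arrays were above both water arrays for 17 members (16.3%, against 19.2% of all probe sets) and below them for 18 (17.3%, against 20.7%).

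The members nearest to a call were *fbxa* genes. *fbxa-74* read 205 in copper-treated against 88.3 in untreated mutants and 276 in copper-treated against 134 in untreated wild type. Both copper signals lie above both water signals, with a fold of at least 2.05 in the mutants and of 2.06 in wild type. Its shared copper effect was 1.13 ± 0.19 on the log2 scale (SE, limma), with an adjusted p of 0.0549 that ranged from 0.0193 to 0.739 over the alternative settings. *fbxa-14* read 279 in copper-treated against 165.9 in untreated mutants and 374.5 in copper-treated against 182.4 in untreated wild type. Again the copper signals lie above the water signals in both genotypes, 1.68-fold in the mutants and 2.05-fold in wild type. Its shared effect was 0.89 ± 0.16 (SE, limma adjusted p = 0.0670, range 0.0237 to 0.609 over the settings).

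Smaller differences in the same direction were seen for *fbxa-82*, *fbxa-19* and *fbxb-63*. *fbxa-82* read 157 in copper-treated against 101.1 in untreated mutants and 168.5 in copper-treated against 94.5 in untreated wild type (limma adjusted p = 0.253). *fbxa-19*, named after its values were seen, read 131 in copper-treated against 89.0 in untreated mutants and 150.5 in copper-treated against 101.3 in untreated wild type (adjusted p = 0.398). *fbxb-63* read 191.5 in copper-treated against 138.7 in untreated mutants and 205 in copper-treated against 137 in untreated wild type (adjusted p = 0.323). None of these passed the test.

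*fbxa-14* and *fbxa-19* lie in one cluster of *fbxa* genes on chromosome III, 2 genes apart in the annotation, while *fbxa-74* lies 68 genes and *fbxa-38* 135 genes from *fbxa-14*. *fbxa-15*, the gene between *fbxa-14* and *fbxa-19*, read 12.7 and 7.17 in the mutants with copper and water and 8.65 and 6.51 in wild type with copper and water, all far below 100. *fbxa-80*, next to *fbxa-19*, read 91.8 and 67.7 in the mutants and 91.8 and 104 in wild type, with no common direction. The pair of *fbxa-14* and *fbxa-19* was noticed after the values were seen, and its closeness was not tested.

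In the other direction, *fbxc-45* read 190.9 in copper-treated against 351 in untreated mutants and 175.9 in copper-treated against 248 in untreated wild type. Both copper signals lie below both water signals, with a shared effect of -0.69 on the log2 scale (limma adjusted p = 0.165). *fbxa-114* read 215 in copper-treated against 270.2 in untreated mutants and 149 in copper-treated against 241 in untreated wild type (adjusted p = 0.309). The largest fitted effect, -3.48 ± 0.93 (SE, adjusted p = 0.191), belonged to *fbxa-38*, which read 7.66 in copper-treated against 115 in untreated mutants and 9.32 in copper-treated against 77.8 in untreated wild type. Of its 4 signals only that of untreated mutants reached 100, and with signals below 100 raised to 100 its effect was -0.10.

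**Figure D2:**
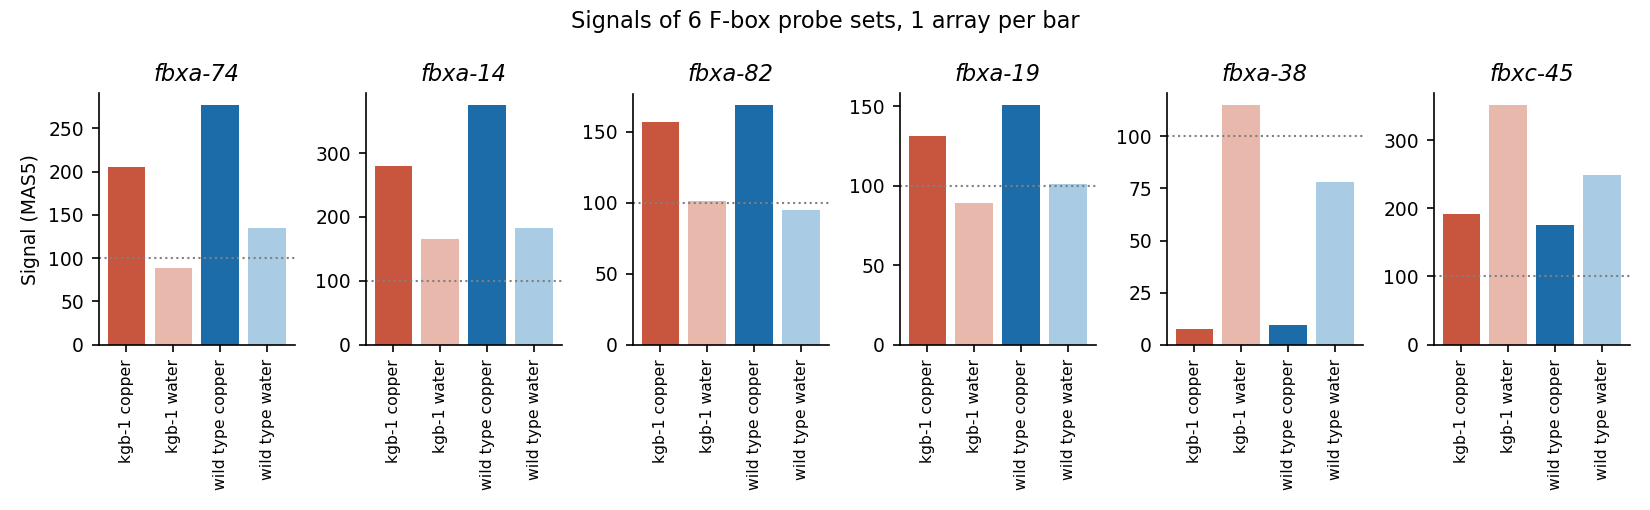
Signal (MAS5, linear axis from 0) of 6 F-box probe sets in copper-treated and untreated *kgb-1* mutants (red shades) and copper-treated and untreated wild-type animals (blue shades), 1 array per bar and so no error bars, with a dotted line at 100. The copper bars are the taller of each pair for *fbxa-74*, *fbxa-14*, *fbxa-82* and *fbxa-19* and the shorter for *fbxa-38* and *fbxc-45*; none of the 6 passed the test.

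Single pairs of arrays carry no error, and their ratios are given as descriptions. In the mutants 1 of 98 members with a signal of 100 in the pair was over 2-fold higher with copper (*fbxa-74*; 1.51% of all probe sets) and 1 was over 2-fold lower (*fbxa-38*; 0.753%). In wild type 3 of 84 were higher (*fbxa-14*, *fbxa-74* and *fbxb-10*; 2.11%) and none was lower (1.08%). *fbxb-10* read 132.9 in copper-treated against 59.1 in untreated wild type, a fold of at least 1.33, and 94.2 in copper-treated against 78.7 in untreated mutants. The ratios of the 2 genotypes come from separate arrays, and over the 104 members they correlated with r = 0.668 and rho = 0.328, beside 0.511 and 0.277 over all 11266 probe sets. *fbxa-38* stands alone at the low end of both.

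**Figure D3:**
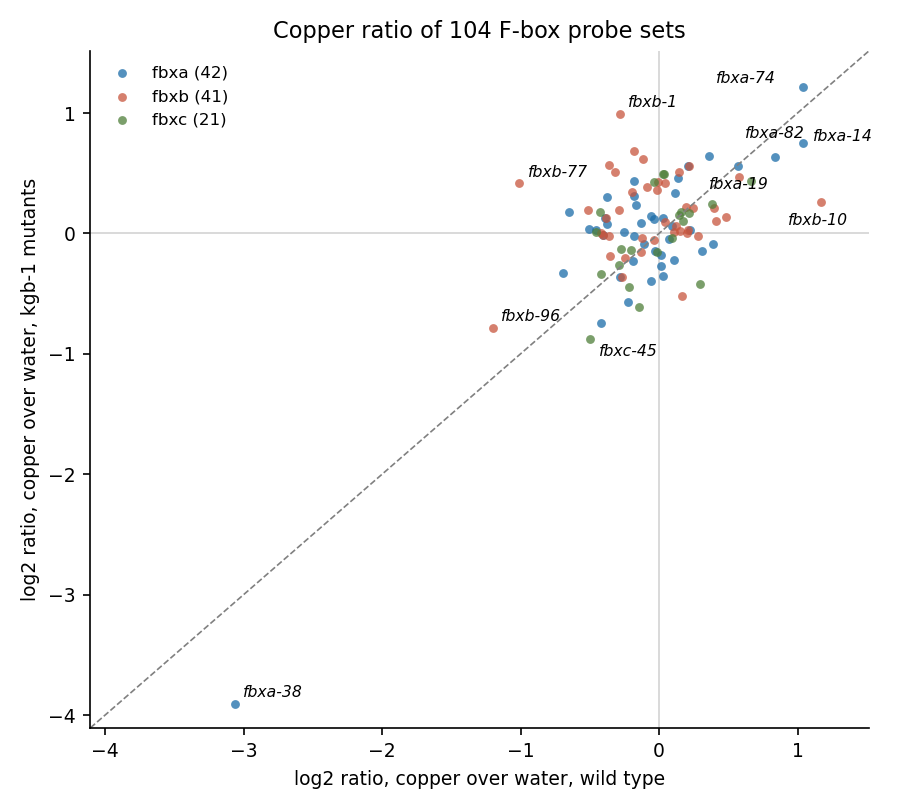
Log2 ratio of copper over water in *kgb-1* mutants (vertical axis) against that in wild-type animals (horizontal axis) for the 104 F-box probe sets, with 1 point per probe set coloured by family and a dashed line of equal ratios. Most points lie within 1 log2 unit of 0 in both genotypes, *fbxa-74* and *fbxa-14* lie at the upper right, and *fbxa-38* lies apart at -3.91 in the mutants and -3.06 in wild type.

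Genotype gave 1 call, *fbxb-41*, which was higher in the *kgb-1* mutants. It read 456.5 and 456 in mutants with copper and water, against 210.0 and 182.7 in wild type with copper and water. The mutant signals lie above the wild-type signals with no overlap, 2.17-fold with copper and 2.50-fold with water. The shared effect was 1.22 ± 0.14 on the log2 scale (SE, limma adjusted p = 0.0397). That is 1 of 104 members, against 0.0533% of all probe sets (6 of 11266). No member was lower, against 0.284% (32). Without adjustment 10 members were higher and 5 lower at a p under 0.05, which is 15 of 104 against 10.8% of all probe sets. The fit had 1 residual degree of freedom. With 1 sample of each strain per treatment, culture conditions that differed between the strains cannot be told apart from genotype. The call for *fbxb-41* was lost at a signal minimum of 200 (adjusted p = 0.0689), with signals below 100 raised to 100 (0.0925), with genotype alone in the model (0.139) and, in that model, with any array left out (0.153 to 0.489), while its effect stayed between 1.10 and 1.32 over all settings.

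The families differed in how their members lay between the genotypes. Both mutant arrays were above both wild-type arrays for 16 of 41 *fbxb*, 9 of 21 *fbxc* and 7 of 42 *fbxa* members, together 32 of 104 (30.8%, against 18.9% of all probe sets). Both lay below for 2 *fbxb*, 1 *fbxc* and 9 *fbxa* members, together 12 (11.5%, against 16.7%). The median genotype effect was 0.23 for *fbxb*, with 34 of 41 above 0, 0.15 for *fbxc*, with 14 of 21 above 0, and -0.01 for *fbxa*, with 20 of 42 above 0, beside 0.01 over all probe sets. With copper, the *fbxb* median was 0.36 on the signals as deposited and 0.38 and 0.41 after quantile normalization and after scaling to a common median. With water it was 0.04 as deposited and 0.00 and -0.01 under these scalings, so that the family had no settled direction there.

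The limit of 100 bears on how these counts can be read. A total of 11 members reached 100 only in copper-treated mutants, namely *fbxb-1*, *fbxb-18*, *fbxb-26*, *fbxb-47*, *fbxb-65*, *fbxb-71*, *fbxb-77*, *fbxa-51*, *fbxc-24*, *fbxc-34* and *fbxc-39*. Another 6 did so only on the 2 mutant arrays, namely *fbxa-67*, *fbxb-30*, *fbxb-38*, *fbxb-40*, *fbxb-74* and *fbxb-84*. Of these 11 and 6, all but *fbxb-1*, *fbxb-65* and *fbxb-77* are among the 32 members with both mutant arrays above both wild-type arrays. Those 11 and 6 members, most of them *fbxb*, passed the limit through mutant arrays alone. The distance of the count of 32 from the 18.9% of all probe sets is therefore no test. Only 1 member reached 100 only on the 2 wild-type arrays, and 2 only in copper-treated and 3 only in untreated wild type. Over every *fbxb* probe set, with no limit on signal, 72 of 98 were higher in mutants with copper and 57 of 98 with water, with medians of 0.28 and 0.15, beside -0.03 and 0.02 over all 22548 worm probe sets. Over every *fbxc* probe set, 25 of 49 were higher in mutants with copper, with a median of 0.00 in place of 0.23 over the members, and 36 of 49 with water, with a median of 0.28. Most of these signals are below 100, where a ratio is least sure.

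Some other measures moved with genotype, and their part in these differences was not tested. Of the markers of the epidermis of moulting animals, 5 of 10 probe sets reached 100, and their summed signal was 973 and 865 in mutants with copper and water and 624 and 699.5 in wild type with copper and water. The blister collagen gene *bli-1* of that list was below 100 on every array. None of the list's markers was called by limma, and 1 was higher in the mutants at an unadjusted p under 0.05. *mlt-10* lay the other way, with 124 and 58.3 in the mutants and 122 and 85.1 in wild type (genotype effect -0.26). The other tested probe sets of the list had effects above 0. Sperm markers, with 30 of 34 probe sets at 100, summed to 60040 and 62670 in the mutants and 77260 and 80160 in wild type. None of them was called by limma, and 25 were lower in the mutants at an unadjusted p under 0.05, against 5.25% of all probe sets. All 30 were for *msp* genes and have a suffix for shared sequence, so they are not separate measures. *spe-9*, *spe-38* and *sss-1* of that list were below 100 on every array. The median genotype effect was 0.41 for the moulting list and -0.34 for sperm. It was -0.01 for oocytes and germline, -0.06 for intestine and yolk, 0.14 for neurons and -0.17 for body muscle, also with no call. In bulk RNA, fewer cells of a type and less RNA per cell cannot be told apart. For the catalase probe sets, the signal at the 3′ end divided by that at the 5′ end, a sign of RNA or labelling quality, was 2.90 and 3.63 in the mutants and 4.62 and 4.61 in wild type. The other controls differed less between the genotypes. Gapdh gave 1.08 and 0.942 in the mutants and 0.912 and 1.01 in wild type. Actin gave 1.74 and 1.70 in the mutants and 1.77 and 1.85 in wild type.

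**Figure D4:**
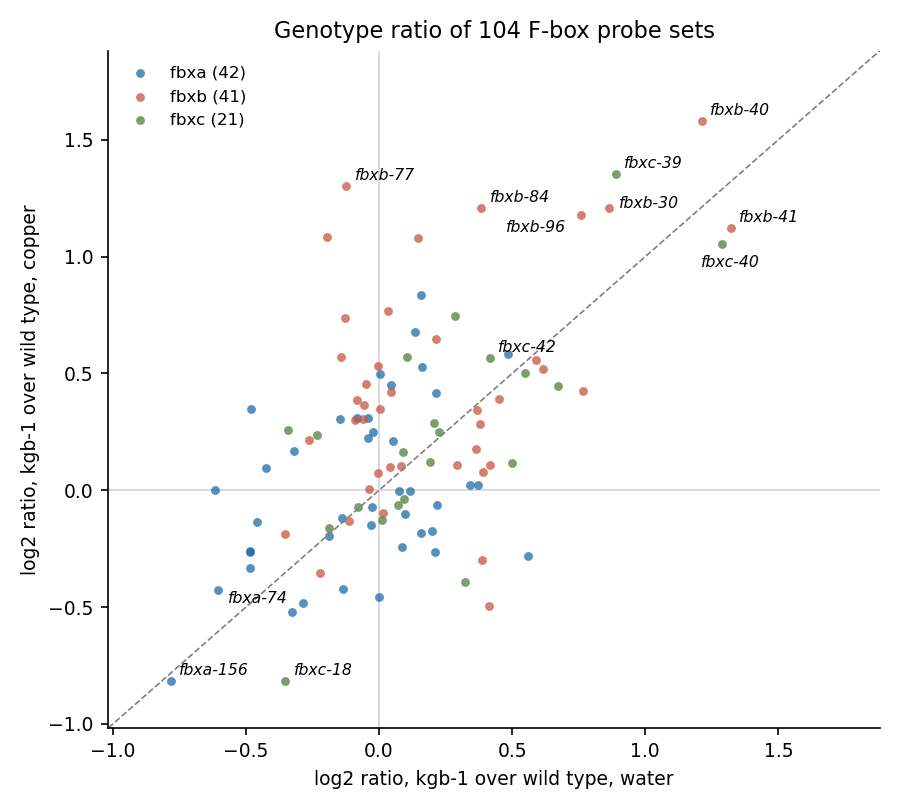
Log2 ratio of *kgb-1* mutants over wild type with copper (vertical axis) against that with water (horizontal axis) for the 104 F-box probe sets, with 1 point per probe set coloured by family and a dashed line of equal ratios. *fbxb-40*, *fbxb-41*, *fbxc-40*, *fbxc-39* and *fbxb-30* lie at the upper right with ratios over 0.8 in both treatments, while *fbxb-77* and *fbxb-84* lie higher with copper than with water and *fbxa-156* is lowest with water.

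With copper, 9 of 97 members with a signal of 100 in the pair were over 2-fold higher in mutants than in wild type, against 1.19% of all probe sets, and none was over 2-fold lower, against 1.44%. With water, 3 of 90 were higher, against 0.601%, and none was lower, against 0.934%. The 3 with water were *fbxc-40*, *fbxb-40* and *fbxb-41*. These were 3 of the 9 with copper, and the other 6 were *fbxc-39*, *fbxb-30*, *fbxb-84*, *fbxb-77*, *fbxb-1* and *fbxb-71*, each of which had a wild-type signal below 100. *fbxb-40* also had wild-type signals below 100, 68.9 with copper and 66.7 with water. With signals below 100 raised to 100 before the count, 3 of the 9 were left. *fbxb-40* is among them with copper, but with water its fold against 100 was 1.55. Most members are dim, and dim probe sets passed 2-fold more often than all probe sets. Among worm probe sets with a mean signal from 20 to 200, 70 of 2447 were higher with copper and 109 lower. With water, 47 of 2281 of them were higher and 63 lower. The genotype ratios with copper and with water correlated over the members with r = 0.547 and rho = 0.411, beside 0.378 and 0.231 over all probe sets.

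Of the 9 members, 5 lie close together on chromosome II. *fbxc-40* read 344.5 and 469 in mutants with copper and water, against 166 and 192.4 in wild type with copper and water, with a genotype effect of 1.17 ± 0.15 on the log2 scale (SE, limma adjusted p = 0.0548). *fbxc-39*, the next gene, read 138.5 and 98.3 in the mutants and 54.2 and 53.1 in wild type (1.12, adjusted p = 0.322). *fbxb-30* read 114 and 115 in the mutants and 49.4 and 63.4 in wild type (1.03, adjusted p = 0.344). The mutant signals lie above the wild-type signals for each. *fbxb-40*, 3 genes after *fbxb-41*, read 206 and 154.5 in the mutants and 68.9 and 66.7 in wild type. Its fold was at least 2.06 with copper and at least 1.55 with water, with an effect of 1.40 ± 0.26 (SE, adjusted p = 0.131). Between *fbxc-39* and *fbxb-30* lies *fbxc-42*, with 194 and 212 in the mutants and 131 and 159 in wild type (0.49, adjusted p = 0.420). Both *fbxb-41* and *fbxb-40* have the suffix for shared sequence.

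The stretch of chromosome II from *fbxc-40* to *fbxb-40* holds 24 annotated genes and pseudogenes, of which 10 are F-box genes of the families. Of its 20 probe sets, 10 reached 100: the 6 members just given and 4 others. Of these 10, 4 (*fbxc-39*, *fbxb-30*, *fbxb-40* and the probe set shared by *K02E7.7* and *fbxc-40*) reached 100 on mutant arrays only. Their direction was thus tied to how they passed the limit. All 10 had both mutant arrays above both wild-type arrays, with genotype effects from 0.45 to 1.495 and a median of 1.15 on the log2 scale. The others were not F-box probe sets by the rule. *btb-11*, which encodes a BTB domain protein of the kind that serves CUL-3 ligases, read 849 and 760.4 in mutants with copper and water, against 404 and 313 in wild type with copper and water. It was higher in the mutants (1.18 ± 0.13, SE, limma adjusted p = 0.0323, under 0.05 in 7 of 14 settings with a range from 0.00125 to 0.498). A probe set shared by *K02E7.7* and *fbxc-40* read 158 and 132 in the mutants and 46.1 and 56.7 in wild type. *F45D11.5* read 210.1 and 211 in the mutants and 115 and 96.9 in wild type. A probe set for *F45D11.15*, *F45D11.14* and *F45D11.16* read 563 and 560.3 in the mutants and 395.5 and 427 in wild type.

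The difference was smaller on either side of that stretch. Before it, from *fbxc-51* on, 9 of 17 probe sets at 100 had both mutant arrays above both wild-type arrays, with a median effect of 0.19. After it, to *pod-2*, 2 of 8 did, with a median of 0.07. With no limit on signal the contrast was smaller: 16 of 20 probe sets in the stretch were higher in mutants with copper and 17 of 20 with water, beside 26 and 30 of 43 before it and 13 and 15 of 20 after it. *fbxc-18*, 8 genes before *fbxc-40*, lay the other way with 130.2 and 199 in the mutants and 229 and 254 in wild type (-0.58, adjusted p = 0.360). *fbxc-51*, 42 genes before it, read 687 and 610.5 in the mutants and 484 and 417.5 in wild type on one probe set (0.53, adjusted p = 0.195), and 129.9 and 142.5 in the mutants and 116 and 134 in wild type on the other. Over the whole array 6 probe sets were called higher in the mutants. Of these, *btb-11* and *fbxb-41* lie in the stretch, and *dpy-17*, *C50F7.5*, *hch-1* and *ces-2* do not. The ends of the stretch were set after the values were seen, so these counts carry no test. Over the other 98 members the median effect was 0.11, with 31 of 38 *fbxb* above 0 (median 0.22) and 11 of 18 *fbxc* above 0 (median 0.08).

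**Figure D5:**
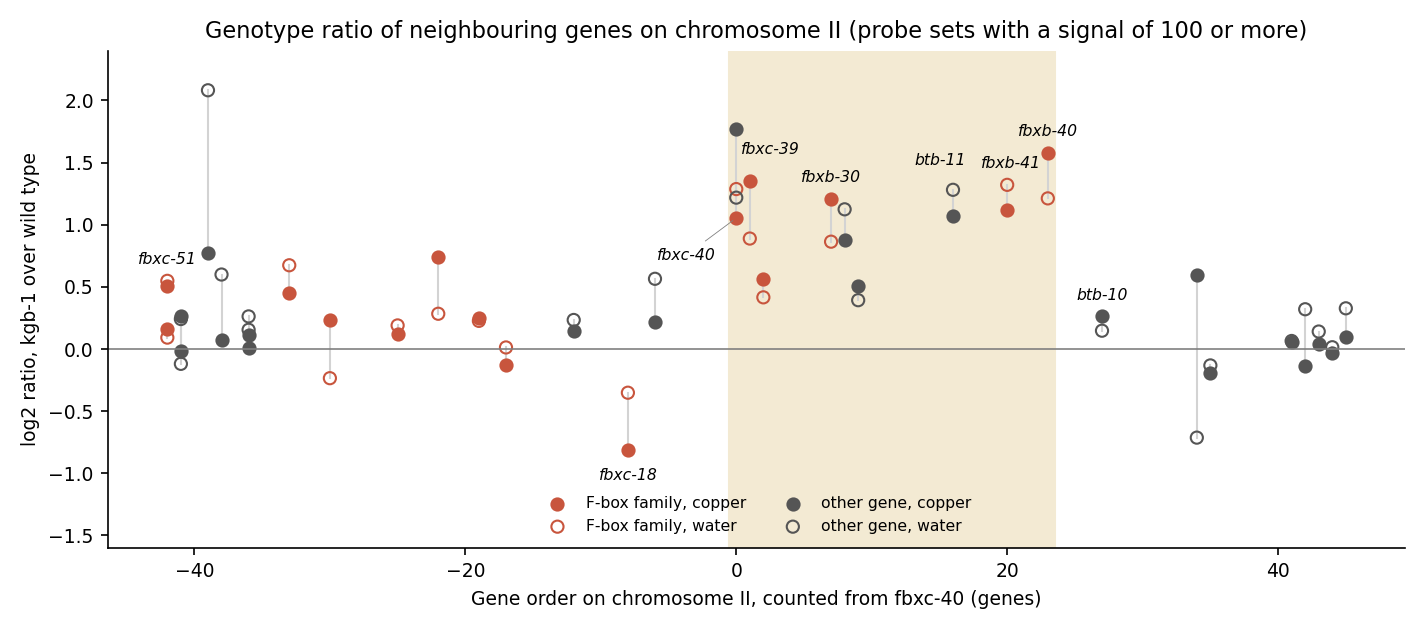
Log2 ratio of *kgb-1* mutants over wild type with copper (filled) and water (open) for probe sets with a signal of 100 or more, against the order of their genes on chromosome II counted from *fbxc-40*, with F-box families in red, other genes in grey and the stretch from *fbxc-40* to *fbxb-40* shaded. All 10 probe sets in the shaded stretch lie above 0 in both treatments, between 0.39 and 1.77, while most of those on either side lie below 0.5; the pseudogene *T07D3.5*, 39 genes before *fbxc-40*, reaches 2.08 with water.

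Away from chromosome II, *fbxa-156* lay lowest in the mutants. It read 412 and 395 in mutants with copper and water, against 725 and 680.4 in wild type with copper and water. Both mutant signals lie below both wild-type signals, with an effect of -0.80 ± 0.12 (SE, limma adjusted p = 0.0701). A second probe set, for *fbxa-157* and *fbxa-156*, read 336 and 315.5 in the mutants and 404 and 442 in wild type (-0.38, adjusted p = 0.406). *fbxa-153* read 185.9 and 171 in the mutants and 234 and 239.8 in wild type (-0.41, adjusted p = 0.457). Smaller differences the other way were those of *fbxb-8*, with 193 and 175.6 in the mutants and 144 and 103 in wild type (0.60, adjusted p = 0.397), and *fbxb-57*, with 185 and 159.8 in the mutants and 126 and 106 in wild type (0.57, adjusted p = 0.402).

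The partners of F-box proteins gave no call in either effect. Of the SCF core, 27 of 29 probe sets were tested, and limma called none higher or lower with copper or with genotype. At an unadjusted p under 0.05, 3 were higher and 1 lower with copper, and 3 were higher and 2 lower in the mutants. Over all probe sets that limit held for 12.8% with copper and 10.8% with genotype, in either direction. Repeat probe sets of a gene are among these hits, of *skr-3* in both effects and of *skr-21* in the genotype effect. *rbx-1*, the RING subunit, read 4381 and 4549 in mutants with copper and water and 4353 and 4350 in wild type with copper and water, and the adaptor *skr-1* 2656 and 2647 in the mutants and 2646 and 2693 in wild type. The scaffold *cul-1* read 890.2 and 861 in the mutants and 1056 and 888 in wild type on the brighter of its probe sets. The adaptor *skr-3* read 1010 in copper-treated against 731 in untreated mutants and 1428 in copper-treated against 1025 in untreated wild type. Its copper effect was 0.47 (limma adjusted p = 0.139) and its genotype effect -0.49 (adjusted p = 0.180). Its neighbour in function *skr-4* read 207 in copper-treated against 300.0 in untreated mutants and 302 in copper-treated against 279 in untreated wild type.

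Other F-box genes (13 of 13 probe sets tested) and regulators of cullins (12 of 13) gave no call by limma either. At an unadjusted p under 0.05, 1 of the other F-box probe sets was higher in the mutants, and 0 of both lists otherwise. *fog-2*, whose protein shares the F-box and FTH layout with FBXA proteins and promotes sperm formation in hermaphrodites, read 1243 and 1440 in mutants with copper and water and 1517 and 1354 in wild type with copper and water. *lin-23*, the worm β-TrCP, read 628 and 612 in the mutants and 671 and 625 in wild type on the brighter of its probe sets, and *sel-10*, related to Fbw7, read 2777 and 2486 in the mutants and 2320 and 2913 in wild type. Of the MATH and BTB families, 33 of 118 probe sets were tested, and *btb-11* was the only call.

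The intracellular pathogen response uses an SCF ligase with CUL-6, SKR-3, SKR-4 or SKR-5 and the F-box proteins FBXA-75 and FBXA-158. Of its list of 28 probe sets, 6 were tested and limma called none, with 2 higher with copper and 3 lower in the mutants at an unadjusted p under 0.05. Over all probe sets that limit held for 12.8% with copper and 10.8% with genotype, in either direction. Both copper hits were probe sets of *skr-3*, including that shared with *skr-4*. The genotype hits were the same probe sets and *cul-6*. Those of *skr-3* are also counted in the SCF core. *cul-6* read 132.6 and 120.6 in mutants with copper and water and 229 and 187 in wild type with copper and water (genotype effect -0.71, limma adjusted p = 0.263). *skr-5*, *fbxa-75* and *fbxa-158* were below 100 on every array, with highest signals of 65.1, 16.2 and 5.77, so no change of theirs was detectable here.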

How the data were processed

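Signals were taken from the table of MAS5 intensities that the authors deposited for 4 *C. elegans* GeneChips, processed once by a service company. The MAS5 version is not given in the sources used here. Intensities are linear and were scaled by the authors to a trimmed mean of 500.1 per array, and no further background correction or normalization was applied. Probe sets were named by the platform gene table and, through Entrez identifiers, by RefSeq (WBcel235), which matched all 104 members. No genome build is named for the array, so no coordinates are given, and no sequences were used here. Log2 signals of 11266 worm probe sets with a signal of 100 or more on any array were fitted with limma 3.58.1 (lmFit, eBayes with trend; copper and genotype as factors) in R 4.3.3, with Benjamini-Hochberg adjustment. Residual degrees of freedom were 1 and prior degrees of freedom 5.19. The fit was tested on simulated data and held no interaction term. Since each condition has 1 array, p-values carry no spread between animals. They set the effect against how far the contrast repeated between the genotypes or treatments, pooled with the spread of probe sets of like signal. With 1 residual and 5.19 prior degrees of freedom, most of the weight lay on the pooled spread. In pairs of arrays a probe set over 2-fold needed a brighter signal of 100, and a fold with a dimmer signal below 100 was computed against 100 as a lower bound. The number of arrays limits the precision: the SD of the log2 ratio of 18 hybridization controls was 0.18 to 0.22. Counts used pandas 2.3.3 and numpy 2.4.6 in Python 3.11.15, and plots matplotlib 3.10.9. Members, lists and the rule for named genes were chosen with earlier results of these data known. The rule took members called by limma, the 5 largest ratios up and down in each pair of arrays, the 5 highest mean signals of each family and all members with several symbols, plus SCF partners and called genes of the lists. Any other gene was chosen for its values. Alternatives were signal minimums of 50, 200 and none, quantile normalization, a common median, an offset of 32, signals raised to 100, no probe sets with shared sequence, the tested factor alone, and each array left out.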

Additional observations from a re-analysis of the deposited data

Results flagged for a closer look

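The copper ratio had opposite signs in mutants and wild type for 41 of the 104 members. The signs were the same for 63 members, beside 6670 of all 11266 probe sets, so the members lay near the share over the array. For 6 of the 41 both ratios were larger than 0.22, the largest SD of the log2 ratios of the hybridization controls. How many of all probe sets passed that SD was not counted. That SD holds technical noise of added RNA and not the spread between samples of animals, and with 1 array per condition the difference was not tested. *fbxb-1* read 118 in copper-treated against 59.2 in untreated mutants and 55.7 in copper-treated against 67.8 in untreated wild type, with log2 ratios of 1.00 in the mutants and -0.29 in wild type. *fbxb-77* read 112.5 in copper-treated against 84.3 in untreated mutants and 45.7 in copper-treated against 91.8 in untreated wild type, with log2 ratios of 0.42 in the mutants and -1.01 in wild type. *fbxb-84* read 167 in copper-treated against 118 in untreated mutants and 72.5 in copper-treated against 90.2 in untreated wild type, with log2 ratios of 0.51 in the mutants and -0.31 in wild type. *fbxb-71* read 102 in copper-treated against 68.9 in untreated mutants and 48.4 in copper-treated against 62.2 in untreated wild type, with log2 ratios of 0.57 in the mutants and -0.36 in wild type. *fbxa-51* read 112 in copper-treated against 91.3 in untreated mutants and 63.0 in copper-treated against 81.8 in untreated wild type, with log2 ratios of 0.30 in the mutants and -0.38 in wild type. *fbxc-46* lay the other way, with 80.1 in copper-treated against 107 in untreated mutants and 105 in copper-treated against 85.7 in untreated wild type, and log2 ratios of -0.42 in the mutants and 0.29 in wild type. *fbxb-1*, *fbxb-77*, *fbxb-71* and *fbxa-51* reached 100 in copper-treated mutants only and *fbxb-84* on the 2 mutant arrays only, so a high signal in copper-treated mutants was partly what made them members.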

How the results depend on the processing

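No pairing of replicates was possible because each condition has 1 array. The main fit already compared copper within genotype and genotype within treatment. The counts over the array were the least settled. Copper gave 133 probe sets higher and 39 lower; these were 54 and 15 without shared-sequence probe sets, 65 and 25 with copper alone in the model, 177 lower with a common median, and 56 to 149 higher and 8 to 207 lower with an array left out. Genotype gave 6 higher and 32 lower; these were 11 and 52 at a minimum of 50, 48 and 112 with a common median, 0 and 2 with signals raised to 100, 0 and 12 without shared-sequence probe sets, 0 and 2 with genotype alone, 1 higher at a minimum of 200, 10 higher after quantile normalization, and 0 to 1 higher and 0 to 3 lower with an array left out. For F-box members, copper gave 0 higher, but 1 at a minimum of 50, with an offset or raised to 100 (*fbxa-74*), 2 with a common median (*fbxa-14* and *fbxa-74*), and 0 to 1 with an array left out; the 0 lower became 1 with a common median (*fbxc-45*). Genotype gave 1 higher, but 2 at a minimum of 50, after quantile normalization or with an offset (with *fbxc-40*), 3 with a common median (with *fbxc-40* and *fbxb-40*), and 0 at a minimum of 200, raised to 100, without shared-sequence probe sets, with genotype alone or with an array left out; the 0 lower became 1 with a common median (*fbxa-156*). The 0 higher for genotype without shared-sequence probe sets did not retest *fbxb-41*, whose probe set has that suffix and was left out there. A common median moved the median copper ratio of all probe sets in wild type from 0.01 to -0.12. Copper ratios over 2-fold in the mutants, 1 higher and 1 lower, became 0 higher with an offset and 0 lower raised to 100; the 3 higher in wild type became 1 after quantile normalization or with a common median and 0 with an offset. The 9 members over 2-fold higher in mutants with copper became 2 with an offset and 3 raised to 100. Members at a minimum of 50 or 200 numbered 74 or 25 for *fbxa* and 74 or 5 for *fbxb*, and at 200 there were 12 for *fbxc*. The genotype effect of *fbxa-74*, -0.52, ran from -1.13 to 0.0913 with an array left out, and was 0.0913 without untreated mutants and 0.0025 without copper-treated wild type. The fits with an array left out held the tested factor alone, and 1 strain then kept both treatments while the other kept only 1. The copper difference of *fbxa-74* thus entered its genotype effect in these fits. The cause of the other changes was not tested. Of 286 alternatives for 23 effects of single members, 264 kept their direction and side of the limit.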
